A study of Homo sapiens with 6 samples.

Results

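The genes described are those of the human proteasome: the protein-coding genes of the deposited table whose symbols are PSMA, PSMB, PSMC, PSMD, PSME, PSMF or PSMG followed by a number. The rule found 48 genes among 19136 protein-coding genes, each represented by its RefSeq transcript accession with the highest base mean. Of these, 5 genes (PSMB8, PSMB9, PSMB10, PSME1 and PSME2) are subunits of the immunoproteasome and of its activator, and they were set against the other 43. PSMC3IP and PSME3IP1 share the stem of the symbol but name partner proteins, so these 2 genes were kept apart.

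The cells were U87, an established human glioblastoma line. RNA was sequenced from 3 libraries labelled EGFR+vIII, which by their label carry the epidermal growth factor receptor and its vIII mutant, and from 3 libraries labelled EGFR+vIII TLR2 KO, in which the innate immune receptor TLR2 was also knocked out. EGFR+vIII is thus shared by both groups, while the labels leave unsaid if the knockout is 1 clone, how EGFR was introduced and if a group's libraries are separate cultures. The p-values therefore measure a spread between libraries that could be technical. The values are those of 1 comparison by the authors with DESeq2, and a value for each library is not part of the table, so levels are given as base means over all 6 libraries.

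The base mean is the read count per library of 1 accession after scaling for depth, and the base means of all accessions sum to 11240272 reads. A gene is given here by its accession with the highest base mean, so reads listed under its other accessions are left out. A positive fold change stands for more RNA in the knockout, reading the table's name as knockout against EGFR+vIII. The targeted gene could not check that reading, because all 8 TLR2 accessions are listed at 0 in the authors' deposited table. Read the other way round, each rise below would be a fall. Of 7 markers of a glioma line GFAP and S100B were listed at 0 in the authors' deposited table, and 5 were tested, of which 1 rose and 2 fell. NES, an intermediate filament of neural precursors, rose by 1.01 (adjusted p = 1.15e-14, base mean 540, authors' deposited table). VIM, another filament, fell by 0.29 (adjusted p = 0.00235, base mean 126476), and SOX2, a stem cell transcription factor, fell by 2.45 (adjusted p = 2.64e-14, base mean 69.0), in the authors' deposited table. CD44 and FN1, at base means of 26.7 and 4.98, were not called. Of 4 endothelium markers KDR (base mean 556) and PECAM1 (159) were well detected, VWF (13.5) and CDH5 (0.539) were low, and 0 of the 3 tested were called by the authors' DESeq2 test (1, PECAM1, had an unadjusted p under 0.05). Of 4 leucocyte markers PTPRC and CD14 were listed at 0, and CD3E (2.47) and LYZ (6.97) were low, in base means of the authors' deposited table. Of 4 epithelium markers 1 was tested and of 4 neuron markers 2 were, and 0 were called by the authors' DESeq2 test. EPCAM (22.4) and TUBB3 (80.8) had the highest base means of these 2 lists. The part of these marker changes in the results below was not tested.

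The proteasome is the protease complex that degrades proteins tagged with ubiquitin. Its barrel, the 20S core, is built of rings of alpha subunits (PSMA genes), which form the gate, around rings of beta subunits (PSMB genes), of which PSMB5, PSMB6 and PSMB7 encode the proteolytic ones. The 19S cap unfolds substrates with an ATPase ring (PSMC genes) and recognises and trims ubiquitin with its other subunits (PSMD genes). Interferon, and interferon-gamma above all, is known to induce PSMB8, PSMB9 and PSMB10, which replace PSMB5, PSMB6 and PSMB7 in newly built cores, and PSME1 and PSME2, which form an activator ring. Immunoproteasomes are known for supplying peptides to MHC class I molecules.

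The upstream sequences of 3 members are shown. PSMB10 and PSME2 were picked after their values were seen, as the members that rose most, and share a short element there. Of the 48 genes, 42 had an entry in the RefSeq promoter table (GRCh38.p14), and the 250 bases before each start were searched on both strands for the core of the interferon-stimulated response element, GAAA, any 2 bases and GAAA again. It was found in 5 of the 42 members (11.9%): PSMB10, PSME2, PSMB4, PSMA4 and PSMG4. The immunoproteasome genes PSMB9 and PSME1 were searched and do not hold it. PSMB7, the counterpart of PSMB10, had no entry and could not be searched. Of all 27305 promoters of the table, 839 (3.07%) hold it. The sequences read 5′ to 3′ towards the gene, with the match in capitals. They lie at chr16:67936851-67937100 on the minus strand for PSMB10, chr14:24146611-24146860 on the minus strand for PSME2 and chr1:151399323-151399572 on the plus strand for PSMB4.
PSMB10: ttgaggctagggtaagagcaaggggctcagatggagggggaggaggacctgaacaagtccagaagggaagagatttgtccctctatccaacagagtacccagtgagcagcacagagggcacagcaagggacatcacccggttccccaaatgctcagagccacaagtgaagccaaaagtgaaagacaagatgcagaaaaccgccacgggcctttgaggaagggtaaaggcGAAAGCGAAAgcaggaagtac
PSME2: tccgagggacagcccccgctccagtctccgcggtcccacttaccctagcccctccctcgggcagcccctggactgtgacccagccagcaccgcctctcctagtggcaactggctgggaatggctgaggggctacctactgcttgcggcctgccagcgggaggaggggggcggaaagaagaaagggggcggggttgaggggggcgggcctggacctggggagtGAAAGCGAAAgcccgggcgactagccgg
PSMB4: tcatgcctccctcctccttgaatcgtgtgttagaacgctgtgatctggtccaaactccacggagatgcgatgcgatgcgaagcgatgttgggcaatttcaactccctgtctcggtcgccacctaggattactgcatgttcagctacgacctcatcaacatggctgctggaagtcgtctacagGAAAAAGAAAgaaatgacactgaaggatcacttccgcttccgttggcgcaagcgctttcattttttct
In PSMB10 and PSME2 the matched letters are the same, GAAAGCGAAA, 12 to 21 bases before the start in PSMB10 and 19 to 28 bases before it in PSME2. PSMG4, an assembly chaperone gene, has the same 10 letters 24 to 33 bases before its start. PSMB4 has GAAAAAGAAA 59 to 68 bases before its start. A match of letters is not evidence that a factor binds there. The other motifs searched were less selective: GGG, any 5 bases and CC, a core of NF-kB sites, was found in 27 of 42 members (64.3%) and in 53.7% of all promoters. TGAC, any 3 bases and GC, the core of the antioxidant response element, was in 11 members (26.2%) and in 11.0% of all promoters. CCAAT was in 18 members (42.9%) against 33.0%, and the gamma-activated site, TTC, any 3 bases and GAA, in 5 (11.9%) against 6.78%.

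How well a subunit gene was listed differed with its number of accessions. Of the 48 genes, 9 were listed at 0, a further 9 had reads but no adjusted p, and 30 were tested. Among the 15 genes with 1 accession, 13 reached a base mean of 100 (86.7%, Wilson 95% interval 62.1 to 96.3), and among the 33 with several accessions 7 did (21.2%, interval 10.7 to 37.8). Over all protein-coding genes of the table, 40.8% of those with 1 accession and 8.18% of those with 2 to 6 accessions reached that level. PSMA3, PSMA5, PSMB3, PSMD1 and PSMD4, parts of the standard proteasome, are among the genes listed at 0 in the authors' deposited table, together with PSMA8, PSMB8, PSMB11 and PSMF1. A listing at 0 therefore does not show that a subunit gene was silent. PSMA8 and PSMB11 are known as the testis and the thymus form of their subunits, and PSMF1 encodes an inhibitor of the core. The genes with reads but no adjusted p were PSMA4, PSMA6, PSMB5, PSMB6, PSMC1, PSMD12, PSME1, PSME3 and PSMG1, with base means between 0.337 (PSMC1) and 2.78 (PSMA4) in the authors' deposited table.

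**Figure D1:**
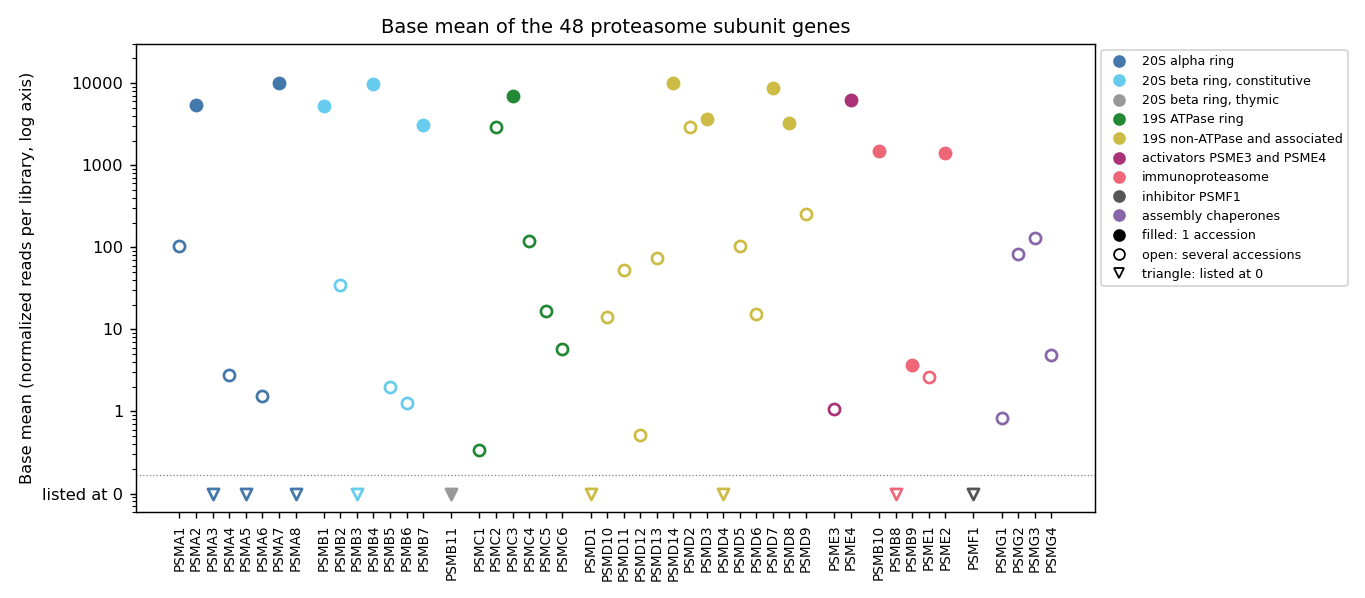
Base mean (normalized reads per library, log axis) of each of the 48 genes, coloured by subcomplex, with filled symbols for genes with 1 accession, open symbols for genes with several, and triangles on the lowest line for genes listed at 0. Of the 15 genes at a base mean of at least 1000, PSMC2 and PSMD2 are drawn open, and PSMB9 is the filled circle at 3.68.

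The 15 genes with a base mean of at least 1000 allow levels to be set side by side per length of transcript (GENCODE 29 lengths). PSMA7, an alpha ring subunit, had 10196 normalized reads per kb and PSMB4, a structural beta subunit, had 10103. PSMB1 (5700), PSMD7 (5292) and PSMD14 (5200), the last being the deubiquitinase of the cap and PSMD7 its partner, followed at similar levels in reads per kb. PSMC3 had 4385, PSMA2 3595, PSMB7 3170, PSMD8 2135 and PSMD3 1701 reads per kb. The inducible PSMB10 had 1226 reads per kb, below the 3170 of PSMB7, the subunit it replaces. PSMC2 (1114), PSME2 (1012), PSME4 (867) and PSMD2 (855) were lowest in reads per kb. The spread of these levels over libraries is not known, and the order of close neighbours is a description. PSMC2 and PSMD2 have several accessions, and genes of that kind were listed lower, as described above. The part of this in their low rank was not tested.

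In the knockout, 6 of the 30 tested subunit genes differed from the EGFR+vIII cells at the authors' adjusted p under 0.05. PSME2 (1.59-fold), PSMB10 (1.55-fold), PSMB1 (1.29-fold) and PSMB7 (1.17-fold) rose, and PSMC3 and PSMD2 fell, by the deposited fold changes. The share called, 20%, was close to the background: 23.5% of all 10303 tested accessions were called, 11.6% higher and 11.9% lower. All 6 were among the 15 members with a base mean of at least 1000 (40.0%), and 48.6% of the 2065 accessions tested at that depth were called, 22.5% higher and 26.2% lower. The family as a whole was thus called about as often as other genes.

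**Figure D2:**
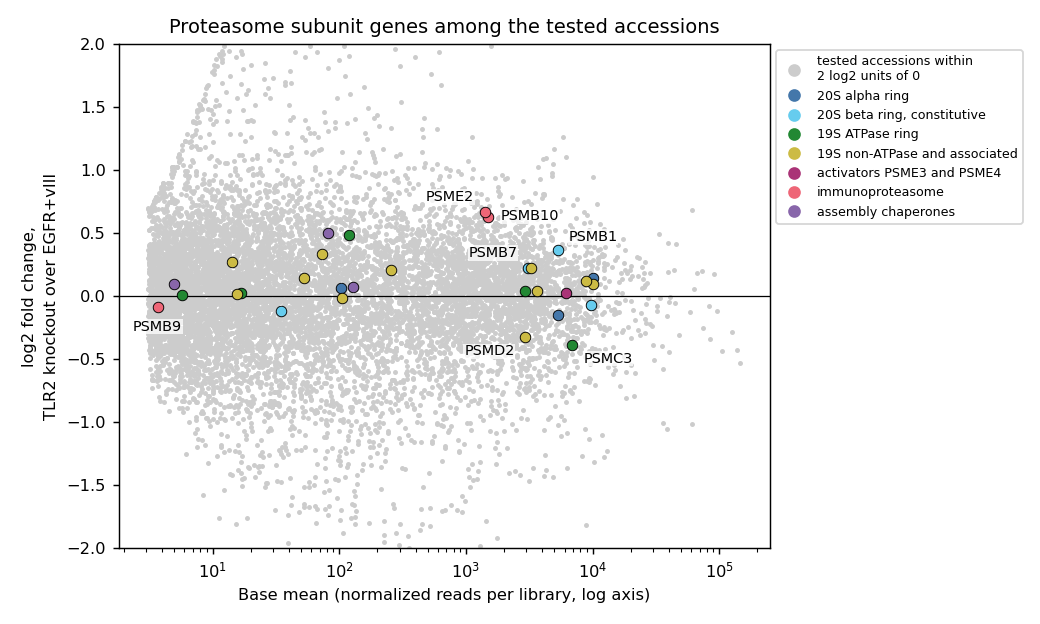
Log2 fold change (knockout over EGFR+vIII) against base mean (log axis) for the tested accessions in grey and the 30 tested subunit genes in colour, with 151 of 10303 accessions beyond 2 log2 units not drawn. PSMB10 and PSME2 lie together above the other subunit genes, at 0.63 and 0.67.

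The sizes were small. Over the 30 tested members the median log2 fold change was 0.08 and the median size regardless of sign was 0.13, beside 0.02 and 0.28 over all tested accessions. Among the 15 members at a base mean of at least 1000 the median size was 0.15, beside 0.23 for all accessions at that depth. Values ran from -0.39 (PSMC3) to 0.67 (PSME2) in the authors' deposited table, and 23 of the 30 were above 0. The deposited fold changes are drawn towards 0 where reads are few, and the median size over the 15 tested members under a base mean of 1000 was 0.09.

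Of the 5 immunoproteasome genes, 3 were tested and 2 were called higher (PSMB10 and PSME2), against 2 higher and 2 lower of 27 tested among the other 43. The median log2 fold change was 0.63 over the 3 tested immunoproteasome genes and 0.07 over the 27 others. PSMB10 and PSME2 both have a base mean of at least 1000. Of the 13 other members at that depth 2 rose and 2 fell, with a median of 0.04. Of all accessions tested there, 22.5% were called higher and 26.2% lower. These are counts over few genes and carry no test.

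PSME2 (chromosome 14, 24143365 to 24146610, GRCh38.p14), the beta subunit of the activator that opens the core, had a base mean of 1421 in the authors' deposited table. Split by the deposited fold change, that is about 1098 normalized reads per library in the EGFR+vIII cells and 1743 in the knockout. Its log2 fold change in the authors' deposited table was 0.67 (SE 0.10, n = 3 libraries per group, adjusted p = 6.19e-11). The 95% interval runs from 1.40-fold to 1.81-fold higher, and PSME2 was the subunit gene with the smallest adjusted p. Its gene holds MIR7703, whose base mean was 0.958 in the authors' deposited table, and 6 annotated pseudogenes bear its name, with which it could share reads. The same limit holds for the called genes PSMB7, PSMC3 and PSMD2, with 1 such pseudogene each.

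PSMB10 (chromosome 16, 67934506 to 67936850), the trypsin-like subunit of the immunoproteasome, had a base mean of 1494 in the authors' deposited table, about 1172 reads in the EGFR+vIII cells and 1815 in the knockout when split by the fold change. Its log2 fold change in the authors' deposited table was 0.63 (adjusted p = 1.85e-05, SE 0.13), with a 95% interval of 1.29-fold to 1.85-fold. The call ended when each Wald score (fold change over SE) was divided by the central spread of all scores (adjusted p = 0.0681, where 11 alternatives ranged from 9.12e-06 to 1). It held under 8 of the 11 alternatives, among them an adjusted p under 0.10, which could not end it. No annotated gene overlaps PSMB10.

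PSMB10 rose more than PSMB7, the constitutive subunit whose place it takes. The difference between their log2 fold changes was 0.41 (SE 0.15, 95% interval 0.11 to 0.71, taking both genes as independent), a 1.33-fold higher ratio of PSMB10 to PSMB7 in the knockout. With scores scaled in this way the interval of this difference, -0.12 to 0.94, included 0. The other fixed pairs (PSMB9 with PSMB6, PSMB8 with PSMB5, and PSME1 and PSME2 with PSME3) could not be compared, because at least 1 gene of each had no adjusted p. PSME4, the activator PA200, was put in the place of PSME3 after its values were seen. PSME2 exceeded PSME4 by 0.64 (SE 0.12, 95% interval 0.40 to 0.88) in log2 fold change. With the pair chosen in this way, the interval is a description and no test.

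The remaining immunoproteasome genes were hardly measured. PSMB9 (chromosome 6, 32854192 to 32859851), the inducible partner of PSMB6, has 1 accession with a base mean of 3.68, about 22.1 normalized reads over all 6 libraries, and a log2 fold change of -0.09 (adjusted p = 0.901, SE 0.32) in the authors' deposited table. PSMB8 (chromosome 6, 32840717 to 32844679), the inducible partner of PSMB5, has 2 accessions that are both listed at 0 in the authors' deposited table. PSME1, the alpha subunit of the activator, has 4 accessions, the highest with a base mean of 2.65 in the authors' deposited table. Whether PSMB8, PSMB9 and PSME1 changed was not detectable at these read numbers.

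PSMB8 and PSMB9 lie in the MHC region of chromosome 6, and few genes there were listed with many reads. Between HLA-F and HLA-DPB1 (29723434 to 33089696), a window chosen after the values were seen, 3 of 53 protein-coding genes with 1 accession reached a base mean of 100 (5.66%, Wilson interval 1.94 to 15.4), and 42 (79.2%) were listed at 0. On the rest of chromosome 6 the share was 143 of 377 (37.9%, interval 33.2 to 42.9), with 94 (24.9%) at 0. TAP1, the peptide transporter gene beside PSMB9, has 2 accessions, both listed at 0 in the authors' deposited table. The part of location in the low values of PSMB8 and PSMB9 was not tested.

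In the core, among the alpha ring genes 3 of 8 were tested and 0 were called, and 2 of the 3 had an unadjusted p under 0.05. PSMA7 had a log2 fold change of 0.14 (adjusted p = 0.122, SE 0.07) and PSMA2, also a ring subunit, one of -0.15 (adjusted p = 0.147, SE 0.08) in the authors' deposited table. PSMA1 stood at 0.07 (SE 0.29) with a base mean of 104 in the authors' deposited table. Of the 7 constitutive beta genes 4 were tested, 2 rose and 0 fell.

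PSMB1 (chromosome 6, 170535120 to 170553307), a structural subunit of the beta ring, rose by 0.36 on the log2 scale (adjusted p = 1.12e-05, SE 0.07, base mean 5289) in the authors' deposited table. Its 95% interval is 1.16-fold to 1.43-fold, and PSMB1 lies at the far end of the same chromosome as PSMB8 and PSMB9. The call ended with scaled scores (adjusted p = 0.0586, where 11 alternatives ranged from 5.51e-06 to 1), and it held under 8 of the 11.

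PSMB7 (chromosome 9, 124353465 to 124415442), the constitutive trypsin-like subunit, rose by 0.22 (adjusted p = 0.0272, SE 0.08, base mean 3107) in the authors' deposited table. The lncRNA gene LOC100129034, which overlaps PSMB7 by 5714 bases, was lower, at a log2 fold change of -0.68 (adjusted p = 1.24e-08, SE 0.11, base mean 938) in the authors' deposited table. Strand use in the counting is not given in the sources used here, so reads from the overlap cannot be assigned with certainty. PSMB7 lost its call with scaled scores (adjusted p = 0.552, where 11 alternatives ranged from 0.0144 to 1). Its call held under 6 of the 11 alternatives.

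PSMB4, which holds the response element letters shown above, had a log2 fold change of -0.07 (adjusted p = 0.596, SE 0.07, base mean 9740) in the authors' deposited table. Its interval, 0.862-fold to 1.05-fold, leaves out a rise of the size seen in PSMB10. PSMB2 was at -0.11 (SE 0.32) with a base mean of 34.8 in the authors' deposited table.

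In the ATPase ring of the cap 5 of 6 genes were tested, 0 rose and 1 fell. PSMC3 (chromosome 11, 47418775 to 47426439), an ATPase subunit, fell by 0.39 on the log2 scale (adjusted p = 0.00275, SE 0.11, base mean 6928) in the authors' deposited table. Split by the fold change, its level was about 7849 reads in the EGFR+vIII cells and 6006 in the knockout. PSMC2, of the same ring and likewise deeply read (base mean 2937), was at 0.04 (adjusted p = 0.821, SE 0.08) in the authors' deposited table. PSMC4 had a log2 fold change of 0.48 (adjusted p = 0.132, SE 0.24) at a base mean of 120 in the authors' deposited table. PSMC5 (0.02, base mean 16.8) and PSMC6 (0.01, base mean 5.74) were thinly read in the authors' deposited table, with intervals from about 0.613-fold to 1.69-fold. Their SEs, 0.37 and 0.36, are near the largest SE of 0.38, and their fold changes are drawn towards 0. These intervals therefore do not leave out larger changes.

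Among the 14 PSMD genes 11 were tested, 0 rose and 1 fell. PSMD2 (chromosome 3, 184299241 to 184309050), the large scaffold that docks shuttle factors, fell by 0.33 (adjusted p = 0.00175, SE 0.09, base mean 2951) in the authors' deposited table, from about 3285 to 2616 reads when split by the fold change. PSMC3 and PSMD2 lost their calls with scaled scores (adjusted p = 0.291 and 0.257, where their alternatives ranged from 0.0014 to 1 and from 0.000891 to 1). The call held under 7 of 11 alternatives for PSMC3 and under 6 of 10 for PSMD2. The deubiquitinase PSMD14 was at 0.10 (adjusted p = 0.436, SE 0.08), and PSMD7 at 0.12 (adjusted p = 0.357, SE 0.08) in the authors' deposited table. PSMD3, a lid subunit, stood at 0.04 (SE 0.08) in the authors' deposited table. PSMD8, also of the lid, came just short of the threshold with 0.22 (adjusted p = 0.0547, SE 0.09) in the authors' deposited table.

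The intervals of PSMD3, PSMD7 and PSMD14 end below 1.22-fold on the upper side and above 0.923-fold on the lower side. PSMD5, PSMD9 and PSMD10, chaperones that help to assemble the cap's base, were at -0.01, 0.21 and 0.27, and the lid genes PSMD6, PSMD11 and PSMD13 at 0.02, 0.15 and 0.33 (log2 fold changes, authors' deposited table). None of these 6 genes passed the threshold, and their base means ran from 14.1 (PSMD10) to 255 (PSMD9) in the authors' deposited table.

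Outside core and cap, PSME4, which caps the core without ATP, had a base mean of 6158 and a log2 fold change of 0.02 (adjusted p = 0.886, SE 0.08) in the authors' deposited table. Of the 4 assembly chaperone genes 3 were tested and 0 were called. PSMG2 was at 0.50 (adjusted p = 0.14, SE 0.25), PSMG3 at 0.07 (SE 0.23) and PSMG4 at 0.09 (SE 0.36) in the authors' deposited table. PSMG4 carries the response element letters of PSMB10, but a base mean of 4.94 in the authors' deposited table leaves its change undetermined. PSMC3IP, kept apart from the members, was at 0.57 (adjusted p = 0.227, SE 0.32) in the authors' deposited table.

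**Figure D3:**
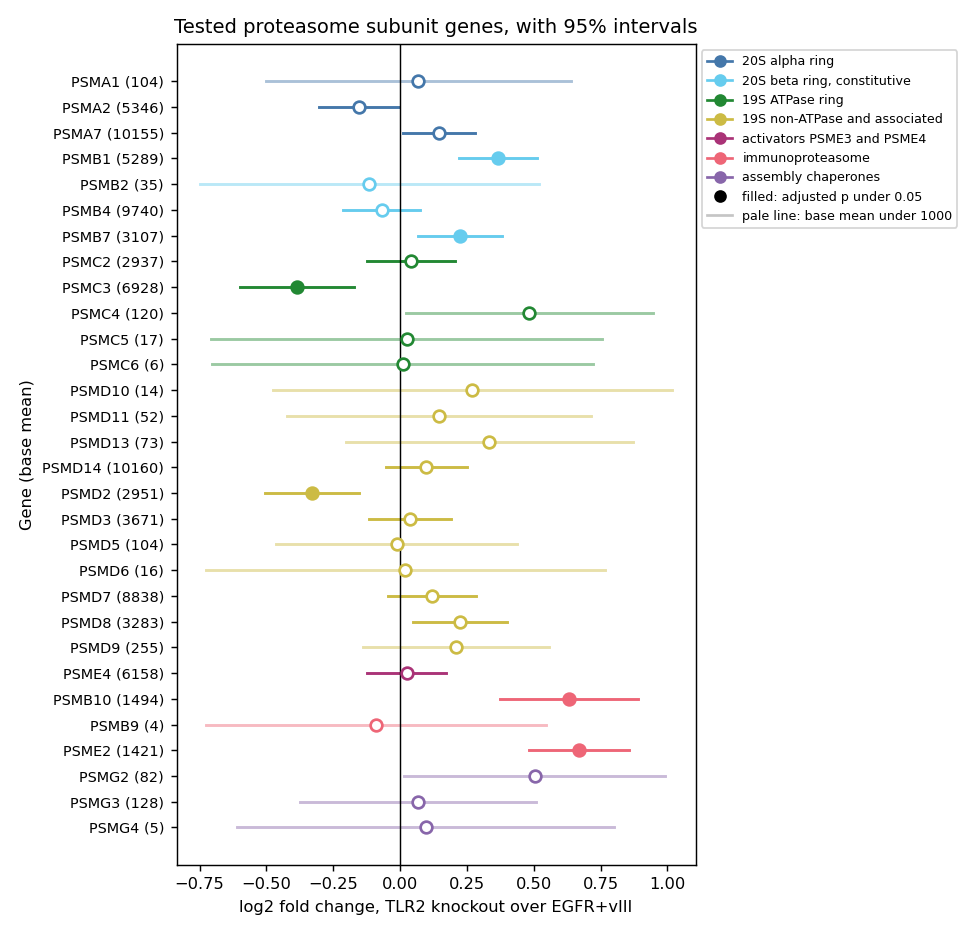
Log2 fold change (knockout over EGFR+vIII) with 95% intervals for the 30 tested subunit genes, by subcomplex, with the base mean in brackets, filled points for an adjusted p under 0.05 and pale lines for a base mean under 1000. PSMB10 and PSME2 lie at 0.63 and 0.67, and the intervals of genes with few reads reach far to both sides of 0.

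The response element can be read over all tested genes with a promoter entry and many reads, the subunit genes included. Of the 49 genes that have a base mean of at least 1000 and the response element core in their 250 bases, 24 (49.0%) were called higher and 7 (14.3%) lower. Of the 1612 without them, 364 (22.6%) were called higher and 399 (24.8%) lower. Among the subunit genes, PSMB10, PSME2 and PSMB4 were the 3 of that depth with the letters, and PSMB10 and PSME2 were called higher. PSMB10 and PSME2, for which the element is shown above, are thus counted among the 24. This comparison was added after the values were seen and carries no test. Of the motifs searched it was made for this element alone, so it does not show whether the difference is particular to it. The part of the element in these changes was not tested.

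A set of 69 genes that act before, on or after the proteasome had 40 tested members, of which 8 rose and 5 fell (32.5% called, beside 23.5% of all tested accessions). Of these 13 calls 11 were among the 19 genes with a base mean of at least 1000 (57.9%), beside 48.6% of all accessions tested at that depth. Over the 40 tested genes the median log2 fold change was 0.16, against 0.02 over all tested accessions. Over the 19 genes with a base mean of at least 1000 it was 0.004, against 0.007 over all accessions at that depth. Of the other proteasome components and assembly factors 7 of 13 were tested, and 2 rose and 1 fell. POMP, the chaperone needed for the beta ring to form, rose by 0.27 (adjusted p = 0.0229, SE 0.09), and UBE3C, a ubiquitin ligase bound to the proteasome, rose by 0.19 (adjusted p = 0.0297, SE 0.07) in the authors' deposited table. USP14, a deubiquitinase that docks on PSMD2, fell by 0.31 (adjusted p = 0.00855, SE 0.10) in the authors' deposited table.

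The transcription factors known to drive proteasome genes could scarcely be read. NFE2L1 (3 accessions) and NFE2L2 (8 accessions) were listed at 0 in the authors' deposited table. NFE2L3, their relative, rose by 1.39 (adjusted p = 0.0017, SE 0.38) at a base mean of 18.7, and DDI2, the protease that activates NFE2L1, stood at 0.09 (SE 0.16) in the authors' deposited table. Of ubiquitin genes, activating enzymes and shuttle factors, 10 of 13 were tested, 1 rose and 0 fell. The riser was UBA6, a ubiquitin-activating enzyme, at 0.19 (adjusted p = 0.0409, SE 0.07) in the authors' deposited table. Of VCP, the segregase that hands substrates to the proteasome, and its cofactors 5 of 7 were tested, with FAF2 higher at 0.22 (adjusted p = 0.0156, SE 0.08) in the authors' deposited table and 0 lower.

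After the proteasome, peptides are trimmed by cytosolic peptidases or carried to class I molecules. LAP3, a leucine aminopeptidase known to be induced by interferon-gamma, rose by 1.09 (adjusted p = 1.71e-39, SE 0.08, base mean 4276) in the authors' deposited table, where the largest value of a subunit gene was 0.67. The peptidase NLN fell by 0.33 (adjusted p = 0.000417, SE 0.08) in the authors' deposited table, and THOP1 was at 0.00 (adjusted p = 0.983, SE 0.08). Of the 7 peptidases 5 were tested, and BLMH (-0.20) and PREP (0.19) did not pass in the authors' deposited table. In peptide loading and class I, 7 of 14 genes were tested, 1 rose and 2 fell. The riser was B2M, the light chain of class I (0.32, SE 0.10), and the genes that fell were the chaperones CALR (-0.25, SE 0.07) and PDIA3 (-0.33, SE 0.07) (log2 fold changes, authors' deposited table).

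Of the interferon signalling factors 4 of 10 were tested, 1 rose and 1 fell. IRF2, a transcription factor of the interferon response, rose by 0.35 (adjusted p = 0.0155, SE 0.12) in the authors' deposited table. IFNAR1, a chain of the type I interferon receptor, fell by 0.41 (adjusted p = 1.51e-07, SE 0.07) in the authors' deposited table. IRF9 was at 0.31 (adjusted p = 0.0909, SE 0.14), and IRF1, with 5 accessions and a highest base mean of 1.17 in the authors' deposited table, was not tested.

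**Figure D4:**
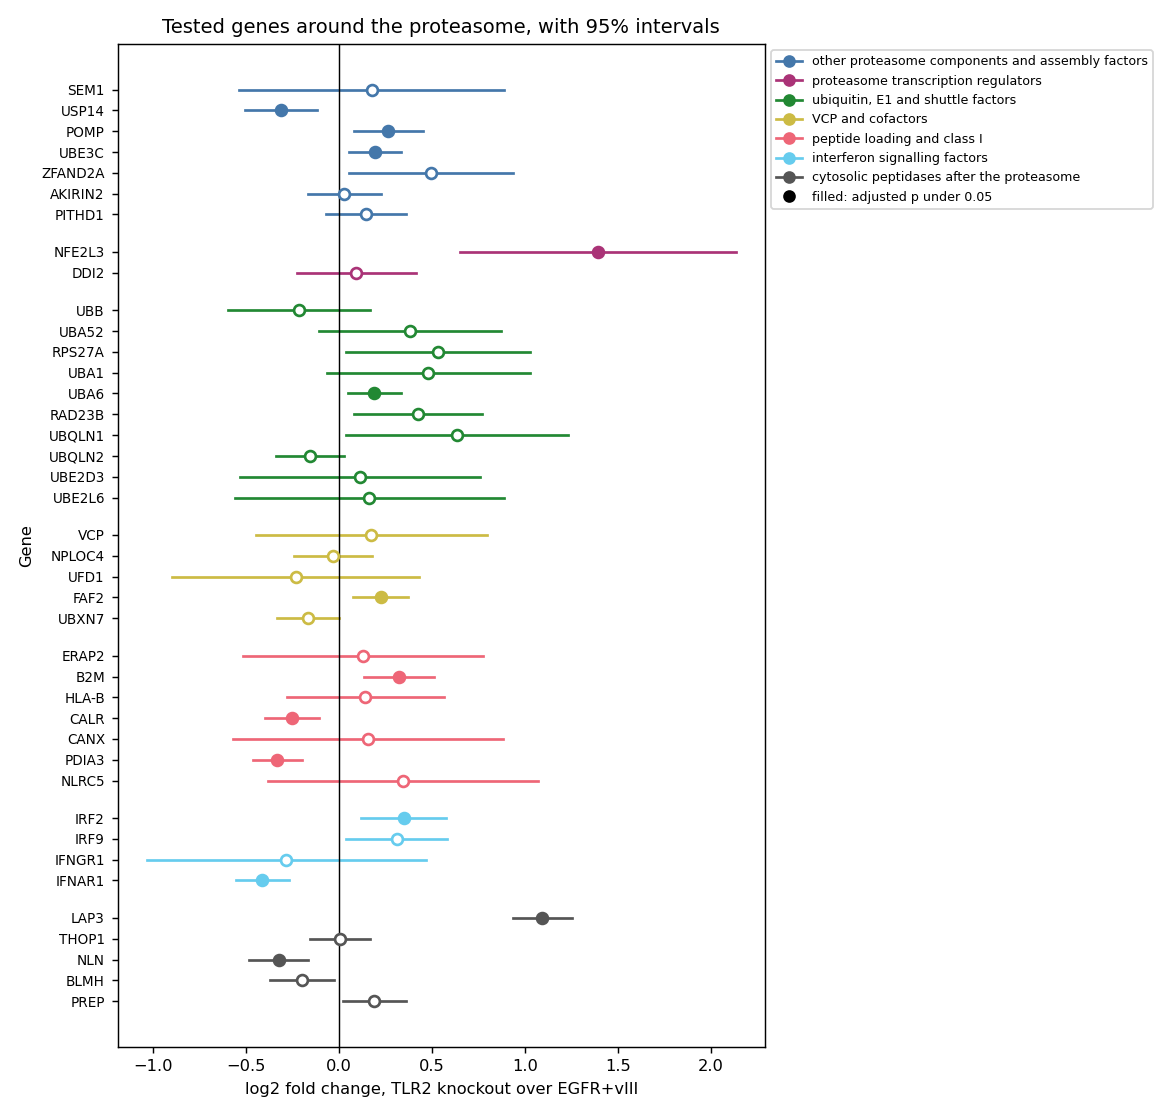
Log2 fold change (knockout over EGFR+vIII) with 95% intervals for the 40 tested genes around the proteasome, coloured by list, with filled points for an adjusted p under 0.05. LAP3 stands at 1.09 with a narrow interval, and NFE2L3 at 1.39 with a wide one.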

How the data were processed

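RNA of 6 U87 libraries, 3 EGFR+vIII and 3 EGFR+vIII TLR2 KO, was sequenced. The submitters' processing notes name STAR, DESeq2 and hg38 and give no version. The authors deposited 1 table with 67933 RefSeq accessions. Per the file headers the authors give a base mean, a signal of depth-scaled reads, a log2 fold change with its SE, a Wald score, a p-value and an adjusted p-value. The deposited Wald score equals fold change over SE (largest gap 5.39e-07), and the adjusted p-value equals a Benjamini-Hochberg adjustment over 10303 accessions (largest gap 4.48e-07), with a lowest tested base mean of 3.11. The largest SE was 0.38, a mark of fold changes drawn towards 0. The design's count test over libraries could not be run without values per library, and the authors' adjusted p under 0.05 took its place. Depth per library is not stated.

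Accessions were matched to symbols with a RefSeq table of GRCh38.p14 (98.8% matched). Intervals of 95% were computed from the deposited SE, and Wilson intervals cover counting error. Implied group means split a base mean by its fold change. Scripts ran in Python 3.11.15 with scipy 1.17.1 and were tested on simulated data. Every member is accounted for by name, with statistics for immunoproteasome genes, their counterparts, called members and the best-read member of each subcomplex. Of the pathway lists, called genes and 5 fixed genes (TAP1, IRF1, NFE2L1, NFE2L2 and POMP) are named, and 3 genes of the pathway and marker lists are not reported here and left out of their counts. Other genes named, among them THOP1, DDI2, IRF9, BLMH, PREP, the overlapping LOC100129034 and the remaining members with values, were chosen after their values were seen. Members and lists were chosen with earlier results of these data known.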

Additional observations from a re-analysis of the deposited data

How the results depend on the processing

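The 11 alternatives reversed the direction of 0 of the results recomputed. For most of them this was fixed in advance, because they reuse the deposited fold changes. Only averaging and centring, named below, altered the fold change of a gene. The calls were partly fixed as well, because an adjusted p under 0.10 could not end a call made under 0.05. Counts of alternatives under which a call held therefore do not measure its strength. With 4 members higher, 2 lower and 2 immunoproteasome genes higher in the reported setting, testing against 1.2-fold in place of no change left 1, 0 and 1 (PSME2), and testing against 1.5-fold left 0, 0 and 0. Wald scores divided by their central spread (1.75) also left 1, 0 and 1, again PSME2, and the difference between PSMB10 and PSMB7, still 0.408, then had an interval that included 0. The number of members lower was 0 by Holm adjustment and 1 among genes with 1 accession, which leaves out PSMD2. An adjusted p under 0.01 or under 0.10, a base mean of at least 100, no filter, averaging the accessions of a gene and centring kept between 3 and 5 members higher and 2 lower. PSMD8 joined the genes called higher at an adjusted p under 0.10, with base means from 100 up and among genes with 1 accession. The median of the members outside the immunoproteasome stayed between 0.06 and 0.10. No paired analysis was possible because the table gives no value per library, and for the same reason no library could be left out in turn. Few reads limit PSMB8, PSMB9, PSME1 and the 15 tested members under a base mean of 1000.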
